A study of Rattus norvegicus with 9 samples.

Results

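Neutrophil granule and alarmin genes were examined in liver and in macrophages of the rat. The group was fixed by 10 gene symbols, Retnlg, Mmp8, Camp, Ngp, S100a8, S100a9, Mpo, Elane, Ltf and Lcn2, and a gene was measured where a probe set carried that symbol and no other in the array annotation. For 9 of the 10 genes there was such a probe set, 1 for each gene, among 36685 probe sets in all and 14824 with exactly 1 symbol. Mpo, which encodes myeloperoxidase, had none and was not analysed here. RNA from 9 samples was hybridised to Affymetrix Rat Gene 2.1 ST arrays. The CSF1-Fc-treated livers are 4 samples of newborn Sprague Dawley rats injected subcutaneously with porcine CSF1-Fc, the macrophage growth factor CSF1 fused to an immunoglobulin Fc region. The PBS-treated livers are 2 samples of newborn Sprague Dawley rats injected with PBS. All of these pups were born to dams that had themselves received PBS in late pregnancy, were reared by foster dams, were injected daily for 5 days, and had their livers taken on day 6. The bone marrow-derived macrophages (BMDM) were 3 cultures of Dark Agouti rat marrow grown in CSF1 for 7 days. Strain, culture and cell type therefore differed together between BMDM and liver and cannot be told apart. The labels number the livers and cultures but give no litter or sex and do not say that each came from its own rat, so p-values measure only the spread between these samples, which may be technical.

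Neutrophils store antimicrobial proteins in granules that are filled in a fixed order as the cells mature. Azurophil granules are filled first, at the promyelocyte stage, with serine proteases such as neutrophil elastase (Elane). Specific granules, with lactoferrin (Ltf), the cathelicidin antimicrobial peptide (Camp), the neutrophilic granule protein (Ngp, best known from mouse) and the siderophore-binding lipocalin 2 (Lcn2), follow at the myelocyte stage. Gelatinase granules are filled last. The granule genes are transcribed during this maturation in marrow, or in the liver while it still makes blood around birth, and their mRNA is scarce in mature neutrophils. S100a8 and S100a9 encode the partner subunits of calprotectin, a cytosolic alarmin that signals through Tlr4 and Ager once released. Retnlg encodes a resistin-like protein of rodent myeloid cells, and Mmp8 the neutrophil collagenase.

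In CSF1-Fc-treated liver, 8 of the 9 measured genes had a lower mean than in PBS-treated liver, and Ltf was the exception, whose difference turned negative without PBS liver 1. The median difference of the 9 genes, CSF1-Fc minus PBS, was -1.82 on the log2 scale, against -0.03 for all probe sets. The means of S100a9 (4.43-fold), Mmp8 (4.09-fold), Camp (3.90-fold) and Ngp (3.52-fold) were lower in CSF1-Fc-treated liver. That of Retnlg was 8.70-fold lower as measured, but its CSF1-Fc mean lay at the 38.3th percentile of all probe sets, below every array's median, and is not shown to be above background, so the size of its difference is uncertain and has no rank. None of the 9 passed limma's moderated test at a Benjamini-Hochberg adjusted p of 0.05 over all probe sets, with 7 lower at an unadjusted p under 0.05 (6.4% of all probe sets). The nearest were Retnlg (limma adjusted p = 0.0588), Mmp8 (0.0672) and Ngp (0.0800). Of all probe sets, 0.254% passed as lower and 1.22% as higher in CSF1-Fc-treated liver. For 6 of the 9 genes (Retnlg, Mmp8, Camp, Ngp, S100a9 and Lcn2) every CSF1-Fc liver lay below both PBS livers, which held for 10.4% of all probe sets and for 11.7% of those with 1 symbol. With 1 PBS liver left out such separation was far more common, at 33.1% of all probe sets without PBS liver 1 (8 of the 9 genes) and 25.5% without PBS liver 2 (6 of the 9). Means were at least 2-fold lower for 5 of the 9, against 1.22% of all probe sets. These shares are a description and no test. The genes were chosen with earlier results of these data known, and 21032 of the 36685 probe sets have no symbol. Bulk liver RNA cannot tell fewer cells of a type from less RNA per cell.

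**Figure D1:**
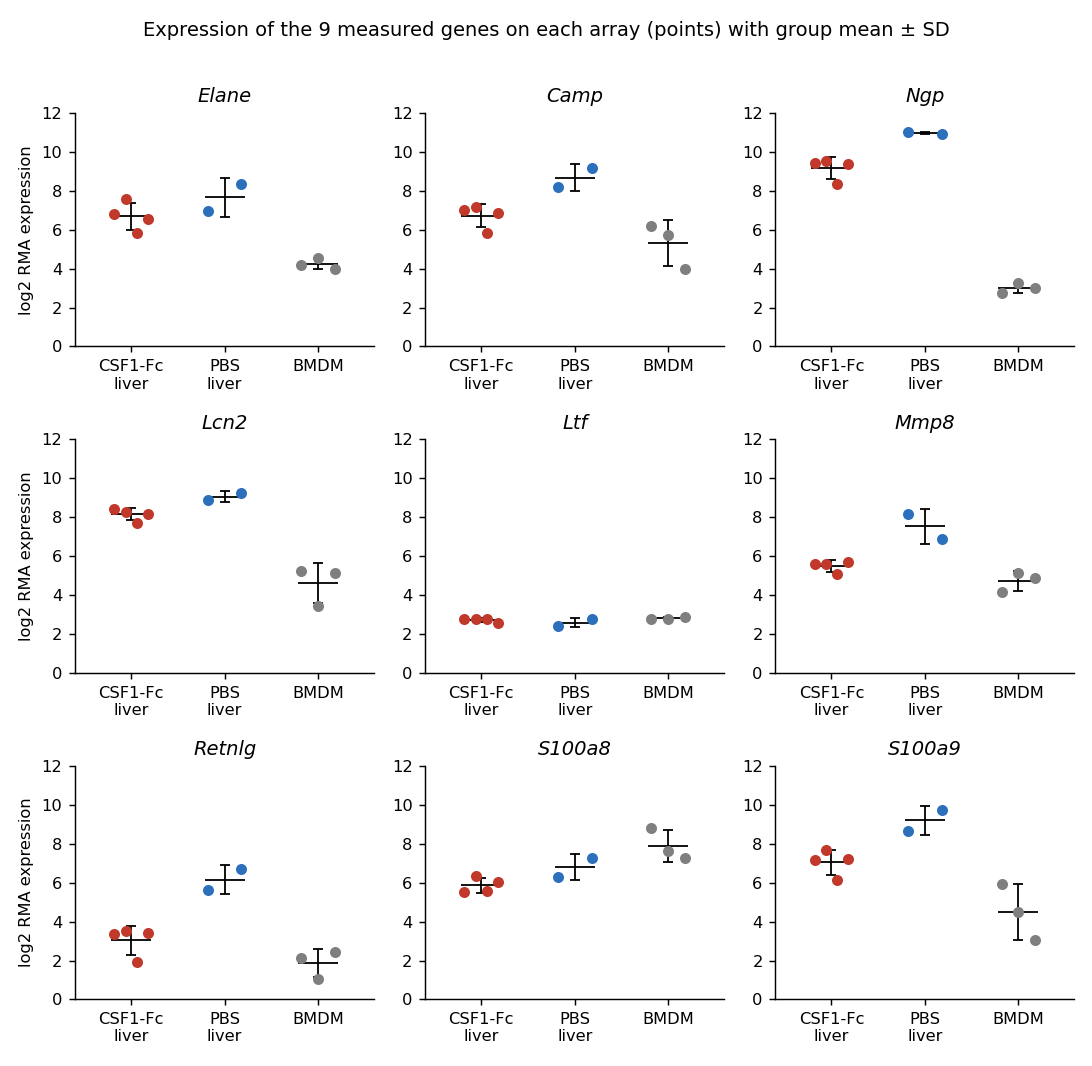
Each point is the log2 RMA expression of 1 gene on 1 array, with the 4 CSF1-Fc livers, the 2 PBS livers and the 3 BMDM cultures from left to right, and each bar is the group mean ± SD. Ngp had CSF1-Fc livers at 8.33 to 9.52, PBS livers at 10.93 to 11.02 and BMDM at 2.73 to 3.29.

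The arrays differed in ways that touched these genes. Array medians ran from 3.75 to 3.87 log2 units. PBS liver 2 correlated with the other livers at 0.951 to 0.962 over all probe sets, against 0.971 to 0.985 between the other pairs, and it was above PBS liver 1 in 7 of the 9 genes (50.1% of all probe sets). CSF1-Fc liver 3 was the lowest of the 4 CSF1-Fc livers in 7 of the 9 genes (26.7% of all probe sets). Without PBS liver 1, means were at least 2-fold lower in CSF1-Fc-treated liver for 8 of the 9 genes, against 4.52% of all probe sets, and without PBS liver 2 for 5, against 2.20%. With CSF1-Fc liver 1 or CSF1-Fc liver 2 left out the count was 7, and with CSF1-Fc liver 3 or 4 left out it was 5. Expression in the labelled tissues was checked with marker genes: all 6 measured hepatocyte markers were lower in BMDM than in either liver group (limma adjusted p under 0.05), with a summed linear level of 216 to 282 in BMDM, against 24576 to 28219 in CSF1-Fc and 26546 to 28840 in PBS livers. The macrophage markers Cd68 and Csf1r were at 10.80 to 11.23 and 9.97 to 10.21 in BMDM. The tissue macrophage genes Marco, Timd4 and C1qb were at 1.91 to 3.74, 3.30 to 4.37 and 3.36 to 4.81. Of 11 measured macrophage markers, 9 were lower and 0 higher in BMDM than in CSF1-Fc livers by limma (median -4.77). Against PBS livers 8 were lower and 2 higher (median -2.38). Csf1r itself was lower in BMDM than in CSF1-Fc livers (-1.12, limma adjusted p = 0.000437).

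Granule genes are given here by list, from azurophil granules to specific granules to gelatinase granules and proteases. The last list mixes proteins of several kinds and does not place each in gelatinase granules. Mmp8 is on that last list and so is not in the summary of specific granule genes. Elane, the only measured azurophil granule gene of the 9, had log2 values of 6.79, 7.57, 5.84 and 6.54 in CSF1-Fc livers, against 6.96 and 8.36 in PBS livers. CSF1-Fc liver 2 was above PBS liver 1, so the groups overlapped. The difference was -0.97 (SE 0.56, limma adjusted p = 0.510), and it was -1.67 without PBS liver 1 and -0.28 without PBS liver 2. Other azurophil genes overlapped too, with differences of -0.43 for Prtn3 (proteinase 3) and -0.33 for Ctsg (cathepsin G). Prss57, a serine protease of the same granules, was lower in each CSF1-Fc liver (-0.57, limma adjusted p = 0.140). Its level was low, at the 41.4th percentile in CSF1-Fc and the 49.9th in PBS livers. CSF1-Fc livers 2, 3 and 4 were listed at the same value, 3.29, so Prss57 gave little to compare. Of the 5 measured azurophil genes all had negative differences and 0 passed by limma, with a list median of -0.43. Only Prss57 had an unadjusted p under 0.05. Bpi, also on that list (-0.13), was low as well, at the 41.5th and 43.3th percentiles in CSF1-Fc and PBS livers.

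Among specific granule genes, Ngp was at 9.43, 9.52, 8.33 and 9.37 in CSF1-Fc livers, against 11.02 and 10.93 in PBS livers. The nearest arrays of the 2 groups were 1.41 log2 units apart, and the difference was -1.82 (SE 0.35, limma adjusted p = 0.0800). Camp was at 7.01, 7.16, 5.85 and 6.84 in CSF1-Fc livers, against 8.19 and 9.17 in PBS livers. Here too the groups did not overlap, with a gap of 1.03 and a difference of -1.96 (SE 0.44, limma adjusted p = 0.114). Lcn2, which hepatocytes also make in the acute phase, was at 8.43, 8.28, 7.73 and 8.16 in CSF1-Fc livers, against 8.88 and 9.25 in PBS livers. Its groups were separate by a narrower gap of 0.45, with a difference of -0.92 (SE 0.23, limma adjusted p = 0.149). Ltf was listed at the same value, 2.76, on 6 of the 9 arrays (equal to 4 decimals), 3 of them CSF1-Fc livers and 1 a PBS liver. CSF1-Fc liver 4 had 2.58 and PBS liver 1 had 2.42, and the group means lay at the 32.4th and 28.7th percentiles of all probe sets in CSF1-Fc and PBS livers, so the probe set gave little to compare. One value shared by 6 or more arrays occurred in 363 probe sets.

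Here and below, a list gene is said to rise or fall only where it passed by limma between the livers (adjusted p under 0.05). On the specific granule list (8 measured genes) there was 1 riser and no faller, and the median difference was 0.03, with 3 lower at an unadjusted p under 0.05, all of them members. The gene that rose was Itgb2, the beta-2 integrin chain that leukocytes of many kinds carry (1.80, SE 0.18, limma adjusted p = 0.0145, and 0.0553 without PBS liver 2). In all, 23 genes of the lists rose between these livers, and each of them missed the threshold when any single CSF1-Fc liver was removed (limma adjusted p = 0.0544 to 0.169), as did every other probe set, while 22 of the 23 passed without PBS liver 1 and 17 without PBS liver 2. Itgam, its alpha chain partner, had 0.84 (limma adjusted p = 0.481). Hp (haptoglobin), a major product of hepatocytes, was at 11.85 to 12.07 in CSF1-Fc livers and 11.93 to 12.11 in PBS livers, and Chi3l1, a chitinase-like protein, had a difference of 0.38 (limma adjusted p = 0.477).

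Mmp8 and Retnlg had the lowest adjusted p-values of the 9. Mmp8 was at 5.60, 5.60, 5.08 and 5.71 in CSF1-Fc livers, against 8.16 and 6.90 in PBS livers. The PBS livers were further from each other (SD 0.89) than the CSF1-Fc livers (SD 0.29), and PBS liver 1 was the higher, as it was for Ngp and for no other measured member. The difference was -2.03 (SE 0.37, limma adjusted p = 0.0672), and a single PBS liver set its size. With PBS liver 1 removed it was -1.40 (limma adjusted p = 0.0569), and with PBS liver 2 removed it was -2.66 and passed (limma adjusted p = 0.0436). Retnlg was at 3.34, 3.50, 1.90 and 3.40 in CSF1-Fc livers, against 5.62 and 6.69 in PBS livers. The groups were 2.12 apart at their nearest arrays, and the difference was -3.12 (SE 0.54, limma adjusted p = 0.0588), with the CSF1-Fc livers at the low level named above. Of the other resistin family genes, Retn (resistin) had -0.61 without overlap (limma adjusted p = 0.174). Retnla (-0.16) and Retnlb (0.21) were low in both groups, at the 9.3th and 26.8th percentiles in CSF1-Fc livers and the 10.2th and 20.7th in PBS livers, and 0 of the 4 measured family members passed by limma, with 2 lower at an unadjusted p under 0.05.

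On the list of gelatinase granules and proteases, which also held Mmp8, 1 of 5 measured genes rose and 0 fell. Differences were negative for 4 of the 5, and the median was -0.55. By unadjusted limma p under 0.05, 1 was higher and 2 were lower. The riser was Mmp9, a gelatinase that macrophages make as well as neutrophils, at 9.61, 8.88, 10.70 and 10.47 in CSF1-Fc livers, against 6.67 and 6.27 in PBS livers (3.44, SE 0.52, limma adjusted p = 0.0409). With PBS liver 1 removed its limma adjusted p was 0.0623, and with PBS liver 2 removed 0.144. Mmp8 and Mmp9 thus stood on opposite sides of 0 in the same livers. Pglyrp1, a peptidoglycan recognition protein of neutrophil granules, was at 5.86, 6.25, 5.18 and 5.86 in CSF1-Fc livers, against 7.40 and 7.98 in PBS livers (-1.90, SE 0.32, limma adjusted p = 0.0568). Fcnb (ficolin B) had -0.41 and Cst7 (cystatin F) -0.55, both with overlapping groups.

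The alarmin partners differed in how far apart the liver groups were. S100a9 was at 7.19, 7.69, 6.14 and 7.19 in CSF1-Fc livers, against 8.66 and 9.74 in PBS livers, with no overlap, a gap of 0.97 and a difference of -2.15 (SE 0.48, limma adjusted p = 0.115). S100a8 was at 5.50, 6.32, 5.60 and 6.01 in CSF1-Fc livers, against 6.32 and 7.27 in PBS livers. CSF1-Fc liver 2 and PBS liver 1 met at the same rounded value, and the difference was -0.94 (SE 0.35, limma adjusted p = 0.308). Within an array, S100a9 minus S100a8 was 0.54 to 1.68 log2 units in CSF1-Fc livers and 2.34 to 2.47 in PBS livers, a contrast chosen after its values were seen and given with no test. On the list of alarmins and S100 genes, 1 of 11 measured members rose, 0 fell, and the median was -0.48. By unadjusted limma p under 0.05, 3 were higher and 4 lower. The riser was Il18, the cytokine interleukin 18 (2.09, SE 0.16, limma adjusted p = 0.0128). Il1b, a cytokine of activated phagocytes, had 1.54 (limma adjusted p = 0.132), S100a11 0.82, S100a6 -0.60 and Anxa1 (annexin A1) -0.98 (limma adjusted p = 0.0772), each without overlap.

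**Figure D2:**
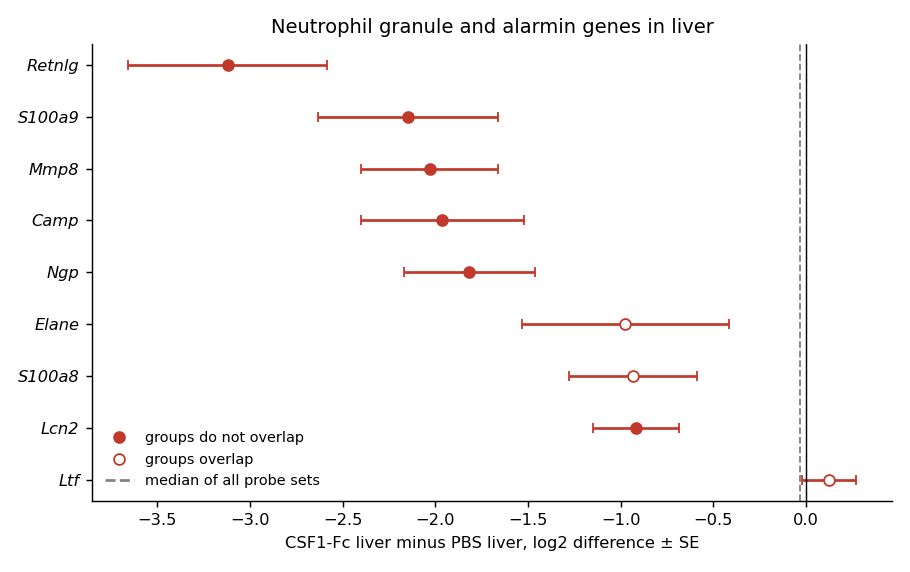
Differences of the 9 genes, CSF1-Fc minus PBS liver, in log2 units with SE from limma. Filled points are genes whose groups did not overlap, and the dashed line is the median of all probe sets, -0.03. Retnlg is at -3.12, with CSF1-Fc livers at a low level, and Ltf alone lies right of 0, at 0.12 with both PBS livers and left of 0 without PBS liver 1.

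Of the 6 genes that lay apart in liver, the promoters of the 4 that held a match are shown. The letters are those bound by the C/EBP, PU.1 and RUNX factors of granulocyte development. RefSeq windows (build GRCr8) of 300 bases, set as 250 before and 50 after a start, were matched for 8 of the 10 symbols. For Mmp8, Lcn2 and Mpo the listed gene start (13008873, 36081851 and 73092124) does not lie at that point of the window. The 4 printed are Ngp, at chr8:119272355-119272654 on the plus strand, Mmp8, at chr8:13008640-13008939 on the plus strand, S100a9, at chr2:178490573-178490872 on the minus strand, and Lcn2, at chr3:36081731-36082030 on the minus strand, each 5′ to 3′ along its gene. Capitals mark matches to TTNNGNAA (C/EBP), GAGGAA (PU.1) or TGTGGT (RUNX) on either strand.
Ngp: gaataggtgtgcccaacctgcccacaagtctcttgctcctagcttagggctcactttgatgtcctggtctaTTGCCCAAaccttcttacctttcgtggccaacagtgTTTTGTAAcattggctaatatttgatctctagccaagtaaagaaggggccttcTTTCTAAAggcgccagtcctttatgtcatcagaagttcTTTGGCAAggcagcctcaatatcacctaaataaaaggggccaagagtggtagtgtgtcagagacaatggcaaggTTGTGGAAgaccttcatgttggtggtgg
Mmp8: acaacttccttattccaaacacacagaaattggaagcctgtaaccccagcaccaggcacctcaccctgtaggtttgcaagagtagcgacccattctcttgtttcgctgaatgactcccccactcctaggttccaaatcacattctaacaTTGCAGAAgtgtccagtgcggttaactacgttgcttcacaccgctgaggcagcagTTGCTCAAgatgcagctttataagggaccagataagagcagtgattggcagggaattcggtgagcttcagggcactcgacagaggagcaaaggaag
S100a9: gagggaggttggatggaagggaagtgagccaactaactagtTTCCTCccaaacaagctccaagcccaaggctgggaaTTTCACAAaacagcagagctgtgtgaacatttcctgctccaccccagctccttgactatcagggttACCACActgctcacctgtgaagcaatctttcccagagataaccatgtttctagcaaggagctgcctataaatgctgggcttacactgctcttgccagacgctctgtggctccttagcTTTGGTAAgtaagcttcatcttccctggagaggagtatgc
Lcn2: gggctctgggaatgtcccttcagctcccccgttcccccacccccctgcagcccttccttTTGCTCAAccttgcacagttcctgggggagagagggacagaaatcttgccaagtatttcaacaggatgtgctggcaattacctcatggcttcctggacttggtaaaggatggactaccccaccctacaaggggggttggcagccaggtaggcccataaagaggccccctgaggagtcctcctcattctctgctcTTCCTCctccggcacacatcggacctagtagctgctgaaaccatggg
Ngp held 5 C/EBP matches and Mmp8 2. S100a9 held 2 C/EBP matches, 1 PU.1 match and 1 RUNX match, and Lcn2 1 C/EBP match and 1 PU.1 match. Over the 8 matched promoters, 5 held a C/EBP match, against 41.3% of 33469 promoters of the same length, 3 held a PU.1 match (27.6%) and 2 a RUNX match (17.3%), and no match of a motif overlapped one of another. Camp and Retnlg held none of the 3, which says only that these letters are not in this window. S100a8 and S100a9 lie next to each other on chromosome 2, with 0 annotated genes between them.

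Receptors and factors of the neutrophil lineage were measured beside its granule genes. Of 14 measured neutrophil surface receptors, 2 rose, 0 fell, and the median was 0.00, with 5 higher and 1 lower at an unadjusted limma p under 0.05. Ptafr, the receptor for platelet-activating factor, had 1.59 (SE 0.19, limma adjusted p = 0.0228, and 0.0672 without PBS liver 2) and Selplg, the selectin ligand, 1.27 (SE 0.17, limma adjusted p = 0.0312, and 0.0859 without PBS liver 2). Csf3r, the receptor for the granulocyte growth factor, was at 6.11, 6.56, 6.25 and 6.46 in CSF1-Fc livers, against 5.69 and 4.63 in PBS livers (1.19, limma adjusted p = 0.157), in the opposite direction to the granule genes and also without overlap. Trem1 (1.42) and Fcgr3a (1.61) were likewise above both PBS livers without passing. Ptafr (8.16 to 8.66), Selplg (7.91 to 8.52), Trem1 (9.50 to 9.80) and Fcgr3a (6.36 to 6.80) were also high in BMDM. They are thus not markers of neutrophils alone. Csf3r was at 4.22 to 5.03 in BMDM. Fpr1, the formyl peptide receptor, had -0.87 (limma adjusted p = 0.125) at a low level (12.1th percentile in CSF1-Fc and 29.2th in PBS livers). Cxcr2, the chemokine receptor of mature neutrophils, was at 2.75 to 3.33 in CSF1-Fc livers and at 2.67 and 4.08 in PBS livers, at the 37.4th and 43.6th percentiles.

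Of 7 granulocyte transcription factors 1 rose, Spi1 (PU.1), which macrophages share (1.58, SE 0.26, limma adjusted p = 0.0487), and the list median was -0.47. By unadjusted limma p under 0.05, 1 was higher and 2 were lower. Cebpe, the factor that drives specific granule genes in mouse and human, was at 4.05, 4.48, 4.20 and 4.32 in CSF1-Fc livers, against 4.80 and 5.10 in PBS livers (-0.69, SE 0.17, limma adjusted p = 0.143). Those livers did not overlap. Cebpa, which hepatocytes also express, had -0.58, Myb, a factor of progenitors, -0.54 and Per2 -0.47, with overlap only in Per2. Of 10 chemoattractants and growth factors for neutrophils 0 passed by limma, 2 were higher at an unadjusted p under 0.05 and the median was -0.08. Among them were Pf4 (1.33, limma adjusted p = 0.252), Ccl3 (1.13), Cxcl2 (0.96) and Ppbp (-0.65).

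Of 9 measured receptors for the alarmins and granule proteins 4 rose and 0 fell, with a median of 1.33. Cd14, a co-receptor of Tlr4, was at 9.69, 9.56, 9.40 and 9.44 in CSF1-Fc livers, against 6.35 and 6.99 in PBS livers (2.85, SE 0.21, limma adjusted p = 0.0127). Cd36, a scavenger receptor, rose by 2.26 log2 units, and Tlr2 and Tlr4, which sense microbial products, by 1.76 each (limma adjusted p = 0.0116, 0.0145 and 0.0135). Ly96, the partner of Tlr4, had 1.33 (limma adjusted p = 0.236), and Lrp1, which takes up protease complexes, 0.98. Of 3 subunits of the phagocyte oxidase Ncf1 rose (1.37, SE 0.19, limma adjusted p = 0.0341), and Rac2 (1.41) and Cyba (1.38) were above both PBS livers without passing. None of 7 granule protease inhibitors passed by limma, with 1 higher at an unadjusted p under 0.05. Slpi, an inhibitor of neutrophil elastase, had 2.20 (limma adjusted p = 0.0729) and Serpinb1a -0.34. Hepatocyte acute phase genes had a median of -0.07 with 0 of 8 passed by limma and 2 lower at an unadjusted p under 0.05, Orm1 (-1.06) and Apcs (-0.43).

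**Figure D3:**
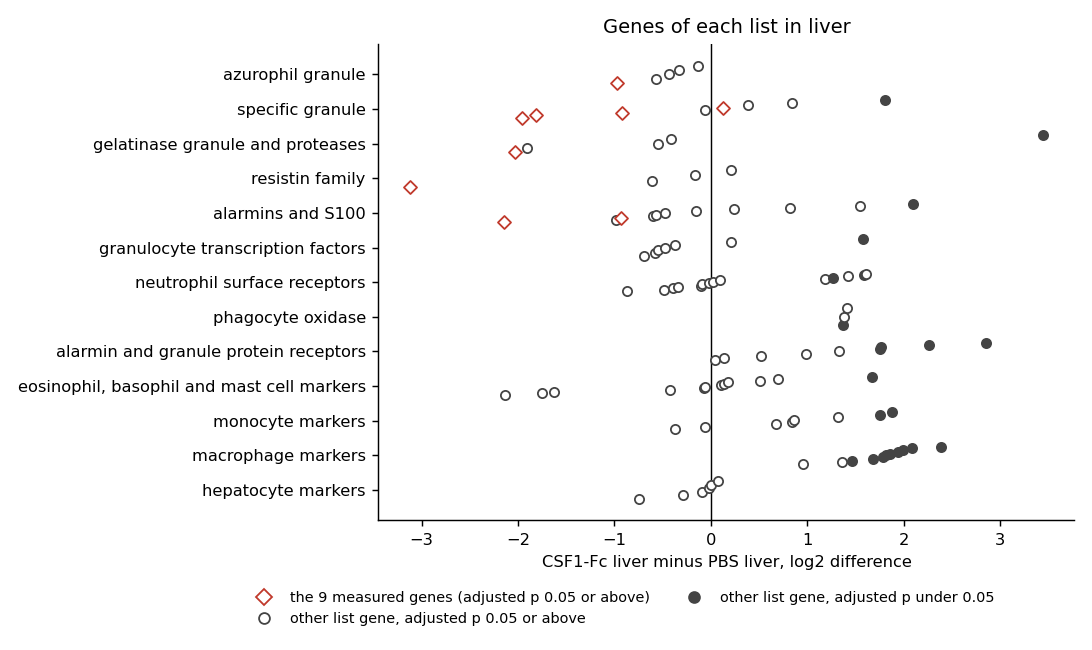
Each point is a gene's log2 difference, CSF1-Fc minus PBS liver, by list. Red diamonds are the 9 measured genes and filled circles passed limma at an adjusted p under 0.05. The macrophage list lies wholly right of 0 (median 1.82), while 8 of the 9 diamonds lie left of it.

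Markers of other cells differed between the same livers. Of 11 macrophage markers 9 rose and 0 fell (median 1.82), with a summed linear level of 13351 to 15563 in CSF1-Fc livers and 3759 to 4868 in PBS livers. They were Adgre1, Csf1r, Cd68, Marco, Vsig4, Timd4, C1qa, C1qb and C1qc, with differences of 1.47 (C1qb) to 2.39 (Timd4), and Clec4f had 1.36 (limma adjusted p = 0.133). Of 8 monocyte markers 2 rose, Itgal (1.87) and Itga4 (1.75), integrin chains that many leukocytes carry. Differences were positive for 6 of the 8, all 6 at an unadjusted limma p under 0.05, and the median was 0.855. Their summed level was 1274 to 1569 in CSF1-Fc and 577 to 652 in PBS livers. The 2 negative differences were -0.06 for Ccr2, the chemokine receptor of classical monocytes, and -0.38 for Spn (CD43) (limma adjusted p = 0.949 and 0.401). For Spn every CSF1-Fc liver lay below both PBS livers. Adgre1 and Itga4 did not pass without PBS liver 2 (limma adjusted p = 0.0617 and 0.113). The eosinophil granule genes Prg2, Epx and Prg3 stood on the same side as the neutrophil genes, and none of them passed. Prg2, the major basic protein, was at 9.36, 10.58, 9.08 and 9.51 in CSF1-Fc livers, against 11.24 and 11.29 in PBS livers (-1.63, limma adjusted p = 0.149). Epx (eosinophil peroxidase) had -1.75 and Prg3 -2.14, also without overlap. On that list of 12 eosinophil, basophil and mast cell markers, 1 rose (Siglec5, a sialic acid-binding lectin, 1.67, limma adjusted p = 0.0128) and 0 fell. Differences were positive for 6 and negative for 6, with 1 higher and 4 lower at an unadjusted limma p under 0.05. The median was 0.02, and the summed level was 1520 to 2833 in CSF1-Fc and 3415 to 3630 in PBS livers. Erythroid markers had 0 of 4 passed by limma and a median of 0.23, with 1 at an unadjusted p under 0.05, and hepatocyte markers 0 of 6 and -0.06, with 2. No marker was listed at 0. The part of these other cells in the differences of the neutrophil genes was not tested.

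The genes whose liver profile was most like the mean of the 9 were taken from 3250 probe sets with 1 symbol and a range of at least 1 log2 unit over the livers, by Pearson's r over the 6 livers. That mean was 6.23, 6.49, 5.47 and 6.20 in CSF1-Fc livers and 7.36 and 7.90 in PBS livers. First was Pglyrp1 (r = 0.997), followed by Csta3, a stefin (0.991), Fabp7, a fatty acid-binding protein (0.989), Gjb1, a gap junction protein of hepatocytes (0.988), Ang, a ribonuclease (0.988), Hmgn2-ps3 (0.987), Csrp2 (0.984), Grhpr (0.983), Aspdh (0.983) and Anxa1 (0.982). These r values describe 6 arrays in 2 treatment groups, and the profiles share the treatment difference and the arrays. Csta3 was at 7.46, 7.87, 6.00 and 7.31 in CSF1-Fc livers, against 8.77 and 9.96 in PBS livers (-2.20, limma adjusted p = 0.163), and like the mean of the 9 it was lowest in CSF1-Fc liver 3 and highest in PBS liver 2.

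BMDM gave another order of levels. In 7 of the 9 genes, all but S100a8 and Ltf, the BMDM mean was the lowest and the PBS liver mean was the highest. The CSF1-Fc liver mean lay between them. The share of all probe sets in that order was not counted, so the order is not shown to be particular to these genes. Against CSF1-Fc-treated liver, 4 of the 9 genes were lower in BMDM and 1 was higher by limma, where 17.5% of all probe sets were lower and 19.9% higher and the median difference of all probe sets was 0.14. Against PBS-treated liver 7 were lower and 0 higher, where 10.4% of all probe sets were lower and 10.2% higher, with an overall median of 0.12. In 4 genes (Ngp, S100a9, Elane and Lcn2) every BMDM culture lay below all 6 livers, which held for 16.6% of all probe sets. These comparisons share their BMDM arrays, and each shares its livers with the comparison of CSF1-Fc and PBS.

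Ngp was at 2.73, 3.29 and 3.00 in BMDM, and differed from CSF1-Fc livers by -6.16 (SE 0.31, limma adjusted p = 4.9e-06) and from PBS livers by -7.97 (SE 0.28, limma adjusted p = 0.000187). The BMDM level was low (34.2th percentile, below the array medians) and is not shown to be above background, so the sizes of these differences are uncertain. Lcn2 was at 5.25, 3.43 and 5.16 in BMDM, with a difference of -3.53 from CSF1-Fc livers (SE 0.44, limma adjusted p = 0.000500) and -4.45 from PBS livers, and of -2.94 and -3.86 without BMDM 2. The Lcn2 value in BMDM 2 was below that array's median of 3.80 and is not shown to be above background. Elane was at 4.20, 4.55 and 4.00 in BMDM, with -2.43 from CSF1-Fc livers (SE 0.38, limma adjusted p = 0.00157) and -3.40 from PBS livers, the last between -4.10 and -2.71 with 1 PBS liver left out. These 3 genes were lower in BMDM against both liver groups.

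Camp was at 6.20, 5.74 and 3.98 in BMDM, and BMDM 1 lay above CSF1-Fc liver 3. It did not pass against CSF1-Fc livers (-1.41, SE 0.55, limma adjusted p = 0.0823). The limma adjusted p was 0.0460 with BMDM 1 removed, and with BMDM 3 removed the difference was -0.75 (limma adjusted p = 0.177). Camp was lower in BMDM than in PBS livers (-3.37, SE 0.71, limma adjusted p = 0.0209, and -2.71 without BMDM 3). Mmp8 was at 4.16, 5.16 and 4.86 in BMDM, overlapping the CSF1-Fc livers. Its difference was -0.77 from CSF1-Fc livers (limma adjusted p = 0.0583, which became 0.0446 when CSF1-Fc liver 3 was removed and 0.0302 when BMDM 2 was) and -2.80 from PBS livers (limma adjusted p = 0.0110). Retnlg was at 2.12, 1.05 and 2.42 in BMDM, again overlapping the CSF1-Fc livers and at the 7.2th percentile, with -1.17 from CSF1-Fc livers (limma adjusted p = 0.0919, and 0.0172 without CSF1-Fc liver 3) and -4.29 from PBS livers (SE 0.53, limma adjusted p = 0.00324). Ltf was at 2.76 in BMDM 1 and 2 and 2.89 in BMDM 3, with differences of 0.09 and 0.21 from CSF1-Fc and PBS livers (limma adjusted p = 0.617 and 0.639).

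**Figure D4:**
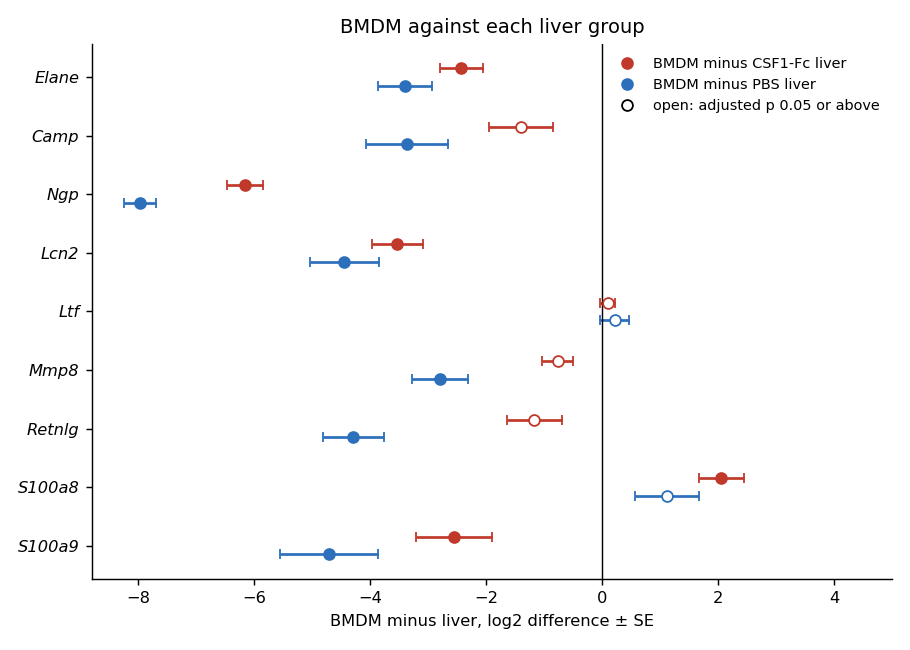
Differences of the 9 genes between BMDM and each liver group, in log2 units with SE from limma. Red marks BMDM minus CSF1-Fc liver, blue BMDM minus PBS liver, and open points had an adjusted p of 0.05 or above. Ngp is at -6.16 and -7.97, with BMDM at a low level, and S100a8 lies right of 0 in both.

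The calprotectin partners parted in BMDM. S100a8 was at 8.83, 7.62 and 7.26 in BMDM, higher than in CSF1-Fc livers by 2.05 (SE 0.39, limma adjusted p = 0.00435), and 1.11 from PBS livers (SE 0.55, limma adjusted p = 0.240). S100a9 was at 5.91, 4.52 and 3.03 in BMDM, with -2.56 from CSF1-Fc livers (SE 0.66, limma adjusted p = 0.0173, -3.28 without BMDM 1 and -1.84 without BMDM 3) and -4.71 from PBS livers (SE 0.84, limma adjusted p = 0.0122). Within an array, S100a9 minus S100a8 was -4.23 to -2.92 log2 units in BMDM, below all 6 livers, whose values were 0.54 to 2.47. The -4.23 was that of BMDM 3, whose S100a9 value of 3.03 was below that array's median of 3.81. That value is not shown to be above background, so the sizes of the S100a9 differences from BMDM are uncertain. Both genes were highest in BMDM 1 and lowest in BMDM 3. S100a6, a calcium-binding relative, was at 12.07 to 12.28 in BMDM and differed by 8.75 from CSF1-Fc livers (limma adjusted p = 2.1e-07), whose level was low (44.2th percentile) and leaves that size uncertain. On the list of alarmins and S100 genes 6 of 11 were higher and 2 lower in BMDM than in CSF1-Fc livers (median 2.05).

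The comparison of BMDM with PBS livers leaned on single arrays. Without PBS liver 1, 3 of the 9 genes passed (Retnlg, Ngp and Elane), with limma adjusted p-values of 0.0757 for Mmp8, 0.0936 for Camp, 0.0751 for S100a9 and 0.0501 for Lcn2. Without PBS liver 2, 4 passed (Retnlg, Mmp8, Ngp and Elane), and Camp, S100a9 and Lcn2 had 0.170, 0.120 and 0.0601. Without BMDM 2, Camp and S100a9 did not pass (0.0592 and 0.0526). The 5 genes called against CSF1-Fc livers passed without any one of the 7 arrays. In those fits 11493 to 14648 of all 36685 probe sets passed. With 2 PBS livers, the number of arrays limits the precision of each comparison with them.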

How the data were processed

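Liver RNA was extracted by the authors with TRIzol and RNeasy columns, samples with an RNA integrity number above 7 were used, and the signals were summarised and normalised by RMA in R with the Transcription Analysis Console. The deposited log2 RMA values of the 36685 probe sets on 9 arrays were used as given. Whether livers and BMDM were normalised together is not given in the sources used here. The platform annotation gave 1 symbol for 14824 probe sets, several for 829 and none for 21032. Detection calls were not used here. Members and named receptors or resistin family genes below the array medians are given with their percentile, and such levels are not shown to be above background. Summed levels are sums of antilogged values.

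Groups were compared with lmFit and eBayes of limma 3.58.1 (R 4.3.3), each fit holding only its own pair of groups. P-values were adjusted by Benjamini-Hochberg across the 36685 probe sets, and 0.05 was the threshold. The fits were tested on simulated data. The members and 17 lists (172 genes, 132 matched) were chosen with earlier results of these data known. Genes named are the members, list genes that passed between the livers, up to 4 more of each list by size of difference, and the 10 most similar profiles, and Cxcr2, Ccr2 and Spn were named outside that rule, after their values were seen. Of probe sets with the same symbol, the one with the highest liver mean stood for a gene. Alternatives were quantile normalization, median centring, a trended robust prior, 1 fit to all 9 arrays, removal of probe sets below the median level, averaging a gene's probe sets, a replicate block, and omission of single arrays. The count of genes without overlap and the count at least 2-fold lower were repeated under settings chosen after seeing the data. Plots were drawn with matplotlib 3.10.9 in Python 3.11.15.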

Additional observations from a re-analysis of the deposited data

Results flagged for a closer look

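In the 4 CSF1-Fc livers, Dixon's test at 95% found 1 array apart from the other 3 in 12 of 83 genes named. Chance gives about 1 in 20 for independent genes. These genes share the same arrays and were partly chosen by size of difference or profile, so that rate is no measure for this count. Among the neutrophil granule and alarmin genes, CSF1-Fc liver 3 was the low array for Retnlg (1.90, against 3.34 to 3.50 in the other 3) and for Ngp (8.33, against 9.37 to 9.52). For Ltf the low array was CSF1-Fc liver 4 (2.58), with the other 3 at one shared value. CSF1-Fc liver 3 was also the low array for C1qb (11.03), Hmgn2-ps3 (4.09) and Grhpr (9.21), and the high array for Lrp1 (10.76). CSF1-Fc liver 2 was the high array for the eosinophil genes Epx (7.85) and Prg3 (6.06), and CSF1-Fc liver 4 for Chi3l1 (7.68). CSF1-Fc liver 1 was the low array for Selplg (7.78) and Prss57 (3.01). For Prss57, as for Ltf, the other 3 were at one shared value. The causes were not tested.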

How the results depend on the processing

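Between CSF1-Fc and PBS liver, 3 of the 9 genes passed (Retnlg, Mmp8 and Ngp) with all 9 arrays in one fit, at limma adjusted p-values of 0.0333, 0.0488 and 0.0416, and 3 with the filter on dim probe sets, at 0.0257, 0.0316 and 0.0385, where Ltf was removed and fewer probe sets were tested. Leaving out each array gave 0 to 1 of the 9. Over all probe sets 542 passed (93 lower), 442 with all 9 arrays (48 lower), 816 with the filter (156 lower), and 0 to 2628 with each array left out. For 8 of the 9 genes the log2 difference kept its sign under every alternative. That of Ltf ran from -0.0456 (without PBS liver 1) to 0.291 (without PBS liver 2), and was -0.1425 between BMDM and CSF1-Fc liver after quantile normalization. Between BMDM and PBS liver, all probe sets that passed numbered 7569, and 11616 with all 9 arrays in one fit. Leaving out each array gave 3 to 7 of the 9 genes and 3804 to 7185 probe sets. Members at least 2-fold lower in CSF1-Fc liver numbered 5 to 8 with each array left out, against 1.35% to 4.52% of all probe sets. Those without overlap numbered 6 to 8. The share of all probe sets without overlap was 12.8% to 13.2% without a CSF1-Fc liver. It was 25.5% without PBS liver 2 and 33.1% without PBS liver 1. Deviations of same-numbered samples from their group means had r of 0.02 and 0.18 between the livers, and -0.12 to 0.00 for BMDM with liver. Differently numbered livers had r of -0.21 to 0.21. The deviations of 2 PBS livers are mirror images, so these values cannot show whether the numbers pair the samples. With the replicate number as a block 0 probe sets and 0 of the 9 genes passed between the livers. Over the single-gene differences 294 kept direction and side of the threshold, 14 passed newly, 9 no longer passed and 2 changed sign. Averaging probe sets changed no member, since each has 1. With 2 PBS livers, a 2-fold difference that did not pass is not shown to be absent. The causes were not tested.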
